A study of Mus musculus with 4 samples.

Results

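Mouse embryonic fibroblasts (MEFs) that had divided more than 3 times in 96 hours of doxycycline were compared with MEFs that had divided once on average, by reduced representation bisulfite sequencing (RRBS). The comparison asks where DNA methylation differed between these division classes. The comparison used 2 of the 4 libraries of the series, 1 a side, so no result below has a replicate check: every test compares a pair of libraries, not the conditions. RRBS cuts genomic DNA at MspI sites and keeps short fragments, here of 40 to 220 bp, so it samples mainly CpG-rich sequence. All cells were secondary, inducible MEFs of a 129/SvJ x C57/B6 hybrid. Such cells descend from reprogrammed cells and carry the reprogramming factors in inducible form, and both cohorts received the drug. The >3-division library is labelled by a cohort of >3, while its description speaks of at least 3 divisions on average; the 1-division library is the cohort of 1. The other libraries, used only to set classes and for background, came from induced cells that had not divided (0-division) and from uninduced cells (control). The labels describe growth in 10% serum, drug at 2 ug/ul in 15% serum and starvation in 0.5% serum, and tie the starvation to no cohort, so the number of divisions and the medium cannot be told apart.

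CpG sites were kept where both libraries had at least 10 reads on an autosome, which left 1040923 CpGs of the 1903228 listed in either library and the 2057290 listed in any. Of these, 803740 lay in 96628 clusters of at least 3 CpGs at most 100 bp apart, and the reads of a cluster were summed. The >3-division library held 94775128 reads over CpGs with a median coverage of 24, and the 1-division library 84954702 reads with a median of 34. A cluster had a median of 289 reads in >3-division cells and 343 in 1-division cells. Of all reads over CpGs, 26.0% were methylated in >3-division cells, against 43.5% in 1-division cells. These shares also depend on which sequence was read. The median read ratio of clusters, >3-division over 1-division, was 1.56 under 5% methylation in control and 0.505 above 95%. With equal weight per cluster the mean difference was -3.66 points. A read counts once at each CpG it covers, so summed reads exceed the number of fragments. Wilson intervals (95%) given below cover counting error only. Because neighbouring CpGs are read on the same fragments, intervals of summed reads are too narrow and their p-values too small.

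Methylation at CpG sites is copied onto the new strand after replication by the maintenance methyltransferase Dnmt1 with its partner Uhrf1, so a site that is not copied is diluted at each division. In somatic cells most CpG-poor sequence is methylated and most CpG-dense promoters are not. Imprinted control regions are methylated on a single parental copy and therefore sit at intermediate levels, and the promoters of many germline genes are methylated throughout fibroblasts.

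Because no annotation of the files' build (mm9) was used, promoters were tied to listed positions by the spacing of their CpGs, from RefSeq promoter sequences of GRCm38.p6. The 3 promoters below show called losses and a promoter without a call. They are printed from 250 bases before the gene start, with the CpGs measured in both libraries in capitals. Mcts2 (GRCm38.p6, chr2:152686898-152687147, plus strand) and Plagl1 (chr10:13090582-13090831, plus strand) are imprinted and were lower in >3-division cells; Slc25a31 (chr3:40708621-40708870, plus strand), a germline gene, was not called.
Mcts2: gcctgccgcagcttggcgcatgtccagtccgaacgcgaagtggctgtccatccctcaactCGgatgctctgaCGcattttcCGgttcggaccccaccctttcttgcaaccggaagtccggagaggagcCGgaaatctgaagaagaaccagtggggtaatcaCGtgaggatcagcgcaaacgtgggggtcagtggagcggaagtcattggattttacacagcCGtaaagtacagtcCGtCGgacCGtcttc
Plagl1: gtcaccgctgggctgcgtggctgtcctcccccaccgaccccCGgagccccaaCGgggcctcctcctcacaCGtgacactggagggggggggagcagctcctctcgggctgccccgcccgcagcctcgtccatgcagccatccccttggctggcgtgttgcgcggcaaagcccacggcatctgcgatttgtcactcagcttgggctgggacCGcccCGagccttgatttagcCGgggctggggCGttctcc
Slc25a31: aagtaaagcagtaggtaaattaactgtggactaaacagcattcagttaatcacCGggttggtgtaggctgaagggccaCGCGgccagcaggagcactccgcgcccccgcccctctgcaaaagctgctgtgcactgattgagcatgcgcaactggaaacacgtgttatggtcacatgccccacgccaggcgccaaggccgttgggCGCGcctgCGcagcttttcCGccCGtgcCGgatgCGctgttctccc
The stretches hold 20, 19 and 18 CpGs, of which 9, 7 and 10 were measured. Their levels are given with the other promoters below.

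Methylation was lower in >3-division cells across the autosomes, and the class that changed most in size was that of highly methylated clusters. The mean cluster level was 50.4% in >3-division cells and 54.1% in 1-division cells, and the medians were 65.7% and 74.1%. The 0-division and control libraries averaged 53.9% each on these clusters. Clusters at or above 80% made up 35.9% of all in >3-division cells, against 43.7% in 1-division cells. Clusters between 20% and 80% made up 29.6% in >3-division cells, against 23.4% in 1-division cells. Of the clusters at or above 80% in 1-division cells, 8962 (21.2%) were between 20% and 80% in >3-division cells and 5 were under 20%. In total 69330 clusters were lower in >3-division cells, 26293 were higher and 1005 were equal. The mean difference was -3.66 points per cluster and -3.54 points per CpG.

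**Figure D1:**
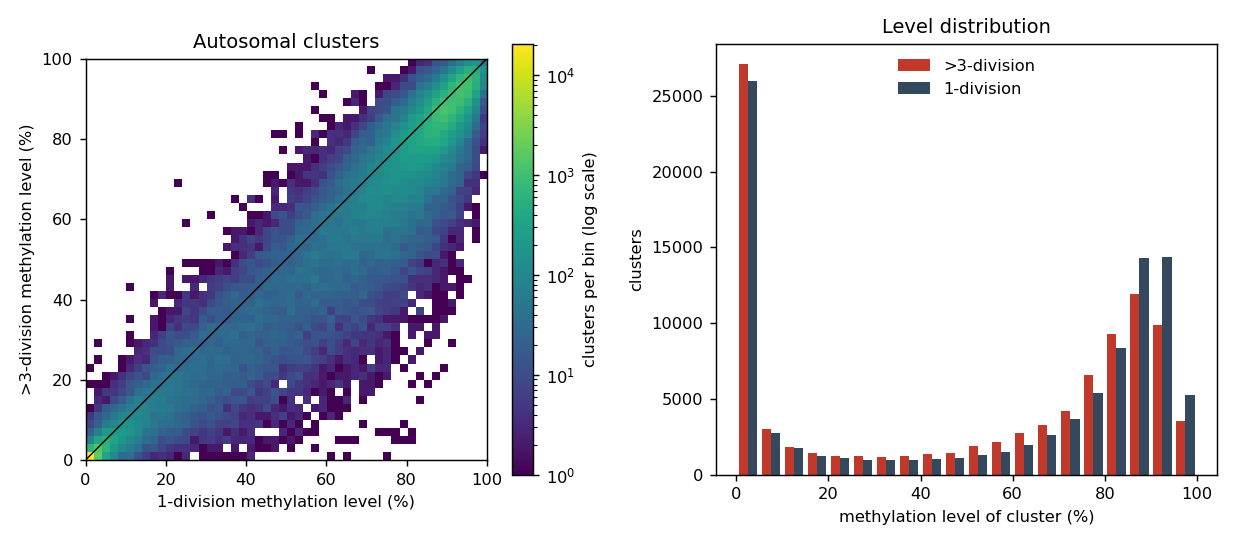
Methylation levels of 96628 autosomal clusters. Left, the >3-division level (vertical axis, %) against the 1-division level (horizontal axis, %), with colour giving clusters per bin of 2 by 2 points on a log scale and the line marking equal levels; right, the number of clusters per 5-point bin of level in the >3-division (red) and 1-division (blue) libraries. Most clusters lie below the line, and bins above 85% hold fewer clusters in >3-division cells.

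A cluster was called where Fisher's exact test on its reads gave a Benjamini-Hochberg adjusted p under 0.05 and the levels differed by at least 10 points. By this rule 10916 clusters (11.3%) were lower and 492 (0.509%) were higher in >3-division cells. Set against the odds ratio of the whole library, 0.737, which takes the average change as the point of no change, 4705 clusters were lower and 2341 were higher, so the share of calls in each direction depends on this centring. On the same clusters, the 0-division library had 374 clusters (0.389%) lower and 336 (0.35%) higher than control. The 1-division library had 116 (0.12%) lower and 184 (0.191%) higher than control; that pair shares a library with the comparison here. Called losses were mostly partial. Their median difference was -17.2 points, with 54.9% as the median level in >3-division cells and 76.4% in 1-division cells. Losses of at least 20, 30, 40, 50 and 60 points numbered 4059, 1188, 303, 76 and 19, against 68, 7, 1, 0 and 0 gains of the same size. In 15 clusters a level of at least 60% in 1-division cells was at most 10% in >3-division cells, and the opposite was called in 0 clusters.

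At single CpGs, with at least 20 points asked for, 32975 CpGs (3.17%) were lower and 1038 (0.0997%) were higher (Fisher's exact test, adjusted p under 0.05). Relative to the odds ratio over CpGs of 0.680, the counts were 15511 lower and 4227 higher. Of the lower CpGs, 33.4% lay in clusters called lower, and 16370 lay outside all clusters, where 6.90% of 237183 CpGs were called lower. Within a called cluster the loss was shared by its CpGs: every CpG was lower in 60.1% of clusters called lower, against 15.2% of all clusters. Among clusters of at least 5 CpGs these shares were 39.0% and 5.65%. The choice of called clusters favours such agreement, so these shares are a description.

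The size of the difference in points varied with the level in uninduced cells. Clusters were classed by their level in the control library, which is not part of the comparison. Clusters under 5% in control averaged 0.968% in >3-division cells and 1.23% in 1-division cells, a difference of -0.267 points. The difference was -2.10 points for clusters from 5% to 20%, -7.33 points from 20% to 50%, -8.30 points from 50% to 80%, -3.83 points from 80% to 95% and -1.94 points above 95%. Losses were called in 30.5% of clusters from 20% to 50% and in 28.1% from 50% to 80%, against 10.49% from 80% to 95% and 3.68% above 95%. Intermediate clusters thus held the largest differences and the highest share of calls among these classes. On the odds scale the classes were close to each other: the Mantel-Haenszel odds ratio of methylation, >3-division over 1-division, lay between 0.702 (50% to 80%) and 0.800 (5% to 20%), and was 0.758 under 5%.

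CpG density, counted as listed CpGs up to 100 bp away in both directions (the CpG itself included), also separated the clusters. CpG-poor clusters (at most 4 CpGs) averaged 65.9% in >3-division cells and 71.2% in 1-division cells, and 16.9% were called lower. CpG-dense clusters (at least 12) averaged 10.4% in >3-division cells and 11.4% in 1-division cells, and 2.37% were called lower. The odds ratios were 0.713 for poor, 0.741 for intermediate and 0.752 for dense clusters. Most dense clusters were unmethylated, and 16557 of 20918 were under 5% in control, a level that leaves little room for a fall of 10 points. Among the 478 dense clusters from 50% to 80% in control the level averaged 54.4% in >3-division cells, against 67.4% in 1-division cells, and 39.1% were called lower. In the same level class 29.2% of intermediate and 26.4% of poor clusters were called lower. Dense clusters were thus called lower at a share no smaller than the others in this level class, but not in most other classes. From 80% to 95%, 5.68% of dense, 9.98% of intermediate and 12.1% of poor clusters were called. The shares were 25.5%, 30.7% and 31.7% from 20% to 50%, and 2.74%, 5.11% and 8.14% from 5% to 20%. Above 95% they were 5.19% of 77 dense clusters, 3.69% and 3.59%. The median read ratio, >3-division over 1-division, also differed by density. For dense, intermediate and poor clusters it was 1.47, 1.40 and 1.33 from 5% to 20%, and 1.18, 1.12 and 1.05 from 20% to 50%. It was 0.698, 0.749 and 0.823 from 50% to 80%, 0.928, 0.677 and 0.75 from 80% to 95%, and 0.567, 0.474 and 0.55 above 95%. The parts of density and read depth in these shares were not tested.

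**Figure D2:**
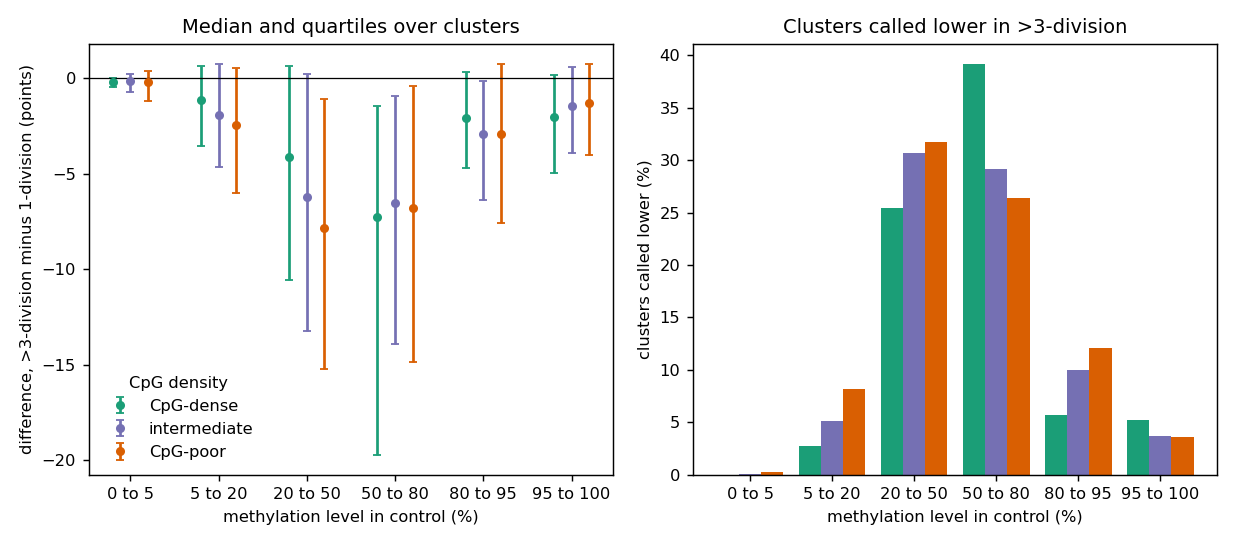
Differences by control level and CpG density. Left, the median difference of clusters in points, >3-division minus 1-division, with bars from the lower to the upper quartile over clusters; right, the share of clusters called lower (%). Differences are largest between 20% and 80% in control, and dense clusters from 50% to 80% have the highest share called lower, 39.1%.

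Read depth moved with the difference. Methylated sequence was read less in >3-division cells: the median ratio of its reads to those of the 1-division library was 1.56 in clusters under 5% in control and 0.505 above 95%. Among clusters at or above 80% in control, split into quartiles of that ratio with 10468 clusters each, the lowest quartile averaged 84.2% in >3-division cells and 90.7% in 1-division cells. The highest quartile averaged 86.8% in >3-division cells and 87.9% in 1-division cells. Differences were -6.47, -4.46, -2.44 and -1.10 points from the lowest to the highest quartile, and losses were called in 19.18%, 12.8%, 4.84% and 2.02% of clusters. The odds ratio was 0.567 in the lowest and 0.886 in the highest quartile, and the part of depth in the differences was not tested. All quartiles were below 0 on average, and the highest, with read ratios from 1.02 to 14.6, had the smallest difference.

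**Figure D3:**
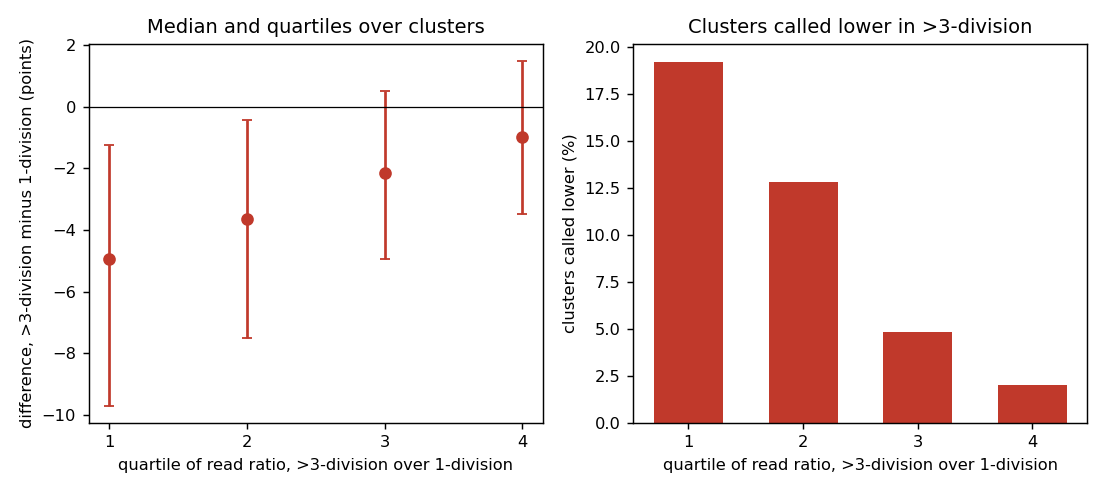
Clusters at or above 80% in control, by quartile of their read ratio (>3-division over 1-division; 1 is the lowest ratio). Left, the median difference in points with bars from the lower to the upper quartile over clusters; right, the share of clusters called lower (%), which runs from 19.18% in the lowest quartile to 2.02% in the highest.

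Losses lay on every autosome. Mean differences by chromosome ran between -4.05 and -3.37 points, with 9.79% to 12.3% of clusters called lower. All 1353 windows of 1 Mb with at least 30 clusters were below 0, with a median of -3.51 points and quartiles of -4.50 and -2.72 points. The lowest window, chromosome 12 from 12000000 to 13000000, averaged 37.6% in >3-division cells and 49.6% in 1-division cells over 32 clusters, with 11 called lower. It holds the promoter of Cyria, a regulator of Rac1 signalling. The next was chromosome 4 from 152000000 to 153000000, around Ajap1, at 47.8% in >3-division cells and 59.2% in 1-division cells, with 25 of 61 clusters called lower. The third, chromosome 2 from 174000000 to 175000000, averaged 41.6% in >3-division cells and 52.9% in 1-division cells, with 21 of 54 called lower. It holds the imprinted Gnas locus. The highest windows, on chromosomes 8, 10 and 5, averaged -0.45, -0.44 and -0.40 points.

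Losses had short-range company. After a cluster called lower, the next cluster within 1 kb that was at or above 20% in control was also called lower in 25.1% of 1853 cases, against 12.8% of all 16327 such neighbours. At 1 to 10 kb the shares were 21.05% and 18.8%, and at 10 to 100 kb 19.12% and 17.5%. The excess over the background share was therefore widest within 1 kb. Most losses still stood alone: joining consecutive losses at most 10 kb apart gave 9083 single clusters, 729 pairs and 98 triples, and 17 longer runs. The longest run had 12 clusters with 71 CpGs at chr8:125949806-125958301. It stood at 34.3% of 13006 reads in >3-division cells and 61.3% of 6834 reads in 1-division cells, with single clusters between 11.2% and 55.5% in >3-division cells and between 44.2% and 82.9% in 1-division cells. The nearest promoter that could be tied to the files, that of Def8, lay 8607 bp away. The 0-division library stood at 73.1% there and control at 72.1%, both above the 1-division library.

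The next longest runs, of 8 and of 5 clusters, both lay in the Gnas locus. Gnas encodes the stimulatory G protein alpha subunit, and its imprinted locus carries several promoters and regions methylated on a single parental copy. The region was examined after its runs were seen. The 8-cluster run at chr2:174122852-174126106 stood at 31.0% in >3-division cells (29.9% to 32.1%, 6582 reads) and 50.2% in 1-division cells (49.0% to 51.5%, 5802 reads). The 5-cluster run at chr2:174109677-174113315 stood at 19.14% in >3-division cells (17.6% to 20.7%, 2487 reads) and 48.3% in 1-division cells (46.5% to 50.2%, 2853 reads). The 5-cluster run overlaps the more upstream of 2 Gnas start windows, 45.7 kb from the other. Over the 60 kb before the downstream window, 16 of 18 clusters, with 155 CpGs, were called lower. Over all autosomal clusters, 30.5% of those from 20% to 50% in control and 28.1% of those from 50% to 80% were called lower. Together the 16 called clusters stood at 23.7% of 11815 reads in >3-division cells and 47.0% of 11376 reads in 1-division cells. Single clusters ran between 4.86% and 40.8% in >3-division cells and between 34.0% and 64.4% in 1-division cells. The same clusters lay between 27.2% and 64.8% in 0-division cells and between 23.2% and 67.7% in control. The 2 clusters not called were at 2.91% and 50.4% in >3-division cells, against 7.76% and 42.7% in 1-division cells. From the downstream window on, 0 of 4 clusters were called: the promoter itself was at 0.656% in >3-division cells and 1.40% in 1-division cells. In 1-division cells these 4 clusters stood at 1.88%, 0.609%, 0.365% and 80.6%, so only the last had room for a fall of 10 points. Set against the whole-library odds ratio, 12 of the 18 upstream clusters were lower and 0 were higher; with clusters joined over gaps of 200 bp, 10 of 12 were lower. Reads of the called clusters were thus about as many in both libraries.

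**Figure D4:**
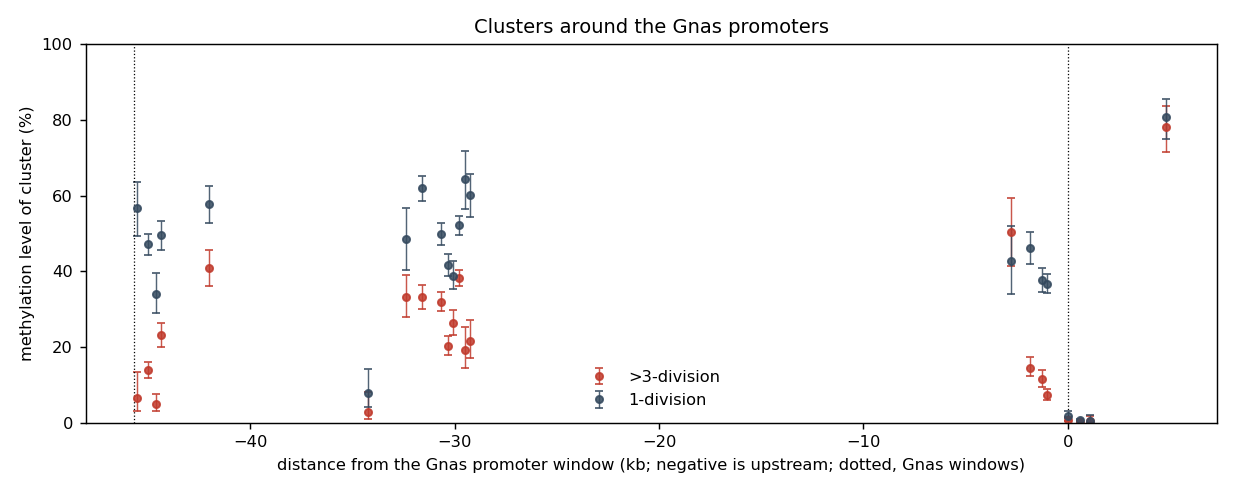
Methylation level of 22 clusters (vertical axis, %) around the Gnas promoters by distance from the downstream Gnas start window (kb), in the >3-division (red) and 1-division (blue) libraries; bars are 95% Wilson intervals and dotted lines mark the Gnas start windows. Of 18 upstream clusters 16 were called lower, while the clusters at the downstream window are near 0 in both libraries.

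Of the 7 runs of 4 losses with the most CpGs, out of 14, 2 lay within 1 kb of a promoter that could be tied to the files. A run at chr1:189424795-189432369, ending 265 bp before a start window of Esrrg, an orphan nuclear receptor, stood at 17.0% in >3-division cells and 41.3% in 1-division cells. A run at chr3:108740634-108743481 reached into the promoter of Henmt1, the methyltransferase of piRNA ends, and stood at 25.03% in >3-division cells and 57.5% in 1-division cells. The other 5 lay 22503 to 220848 bp from the nearest such promoter. Of these, a run at chr7:69564073-69565211, 44135 bp from the imprinted Peg12, stood at 12.3% in >3-division cells and 28.3% in 1-division cells. In the 0-division library the 3 runs stood at 40.0%, 59.8% and 28.1%, and in control at 43.6%, 53.4% and 27.04%, close to the 1-division levels.

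The largest losses took small clusters from high methylation to almost none. The largest was at chr1:129935280-129935302, with 5.67% of 141 reads methylated in >3-division cells (2.90% to 10.8%) and 81.9% of 276 reads in 1-division cells (76.9% to 86.0%). All 4 of its CpGs showed the same picture, between 5.56% and 5.71% in >3-division cells and between 77.8% and 83.8% in 1-division cells. These 4 CpGs lie within 23 bp and had 35 or 36 reads each in >3-division cells, so they may rest on the same fragments. The 0-division library stood at 68.1% there and control at 63.8%. At chr5:23723819-23723850 the levels were 4.10% of 390 reads in >3-division cells and 79.3% of 213 reads in 1-division cells. That cluster was read more deeply in >3-division cells, whereas the other 9 of the 10 largest losses had fewer reads there. At chr17:66011140-66011167 they were 0 of 57 reads in >3-division cells and 74.2% of 124 reads in 1-division cells. The upper Wilson limit of 6.31% in >3-division cells is too low, because the 57 reads are summed over 5 CpGs within 28 bp.

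Some of these losses came in neighbouring pairs. Clusters at chr4:125747365 and chr4:125747492, about 11.5 kb from the promoter of Oscp1, stood at 7.44% and 6.06% in >3-division cells and 81.1% and 74.2% in 1-division cells. Clusters at chr5:133950988 and chr5:133951127, the second named as a large dense loss, stood at 8.62% and 6.84% in >3-division cells and 78.8% and 73.2% in 1-division cells. All 5 CpGs of the first and all 4 of the second were lower. The CpG spacing of the chr5 pair is that of the chr4 pair in reverse order. The cluster at chr5:133951127 also has the CpG spacing of the largest loss, at chr1:129935280. These clusters may therefore be copies of a repeated sequence rather than separate losses, which was not tested. The clusters of a pair are also close enough to share fragments. The remaining clusters among the 10 largest losses, at chr17:95007638, chr7:12791567, chr17:71670771 and chr10:68712496, stood between 5.56% and 18.2% in >3-division cells and between 77.0% and 85.5% in 1-division cells. The last of the 5 largest dense losses, at chr10:80069381, was at 23.9% of 46 reads in >3-division cells and 89.4% of 47 reads in 1-division cells; joined with neighbours over gaps of 200 bp its difference was -11.9 points. In the other 11 clusters of these groups the difference stayed at or beyond -32.4 points under every alternative that gave a value, and all kept their call.

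Losses also reached large CpG-dense clusters at intermediate levels. The cluster at chr9:103267451-103267976, 59 CpGs that overlap the promoter of Cdv3, a gene expressed in proliferating cells, stood at 10.7% of 7214 reads in >3-division cells and 32.9% of 8170 reads in 1-division cells. Of its CpGs 42 were lower, and with equal weight per CpG the difference was -12.3 points in place of -22.2. A cluster of 49 CpGs at chr4:145426778-145427139 was at 31.2% in >3-division cells and 50.8% in 1-division cells, and at -12.5 points with equal weight. A cluster of 60 CpGs at chr7:144500848-144501768, 4310 bp from the promoter of the transcription factor gene Ebf3, was at 22.0% in >3-division cells and 34.2% in 1-division cells; relative to the library-wide odds ratio its difference was -5.70 points and no call. The cluster at chr2:163164922 was at 21.2% in >3-division cells and 31.4% in 1-division cells, and kept its call under 7 of 14 alternatives. The cluster at chr14:33014671-33015518, which overlaps the promoters of Parg and Timm23, was at 2.23% in >3-division cells and 15.9% in 1-division cells; with at least 20 reads per CpG its difference was -0.029 points, while that of the Parg promoter inside it was -42.7 points.

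Gains were fewer and smaller. Called gains had a median difference of 13.3 points, and a median of 272.5 reads in >3-division cells and 211 in 1-division cells, against 170 and 310 for called losses. The largest was at chr11:54214466-54214498, with 68.7% of 217 reads in >3-division cells (62.2% to 74.5%) and 23.8% of 160 reads in 1-division cells (17.8% to 30.9%). All 7 of its CpGs were higher. The 0-division library stood at 43.5% there and control at 33.7%. A cluster at chr16:90349721-90349774 was at 59.4% in >3-division cells and 25.2% in 1-division cells, and one at chr8:81805403-81805517 at 82.3% in >3-division cells and 52.9% in 1-division cells. These 3 gains kept their call under every alternative they could be tested in. The other 7 of the 10 largest gains rested on 33 to 95 reads in >3-division cells, and all lost their call once reads were scaled down by the overdispersion of the 0-division library against control. At chr3:95073628 and chr14:14053715 the 1-division level, 57.6% in both, was the lowest of all libraries: the >3-division library stood at 86.7% and 92.3%, the 0-division library at 77.3% and 75% and control at 95.2% and 89.7%. At chr8:94323447 the difference of 32.1 points became -7.44 points when clusters were joined over gaps of 200 bp.

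Among gains with the most CpGs, the cluster at chr6:28782740-28783018, 24 CpGs, was at 16.7% of 2568 reads in >3-division cells and 4.76% of 1722 reads in 1-division cells. The 0-division library was at 6.35% and control at 4.44%. The cluster at chr5:98364528-98364775, 21 CpGs, was at 58.9% in >3-division cells and 47.6% in 1-division cells. Of those at chr11:94352514, chr15:25293980 and chr7:143045202 the >3-division levels were 45.3%, 44.4% and 35.4%, against 33.6%, 31.6% and 24.0% in 1-division cells. Those on chr5, chr15 and chr7 fell under 10 points in at least 1 alternative.

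Promoters, windows of 300 bp around a gene start, were nearly all unmethylated in both libraries. Of 7852 genes with a measured promoter, 67 (0.853%) were called lower and 5 (0.0637%) higher. The median promoter level was 0.341% in >3-division cells and 0.551% in 1-division cells, and 0 of the 7308 promoters under 5% in control were called in either direction. Of the 199 promoters at or above 20% in control, 58 were called lower and 2 higher. The share called lower was 33 of 112 from 20% to 50%, 18 of 42 from 50% to 80% and 7 of 45 above 80%. Relative to the library-wide odds ratio 28 promoters were lower and 21 higher.

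Imprinted promoters were among these losses, the largest of which was at Mcts2. At Mcts2, a retrogene expressed from the unmethylated parental copy, the promoter was at 10.3% of 1411 reads in >3-division cells (8.86% to 12.1%) and 48.7% of 993 reads in 1-division cells (45.6% to 51.9%; adjusted p = 7.73e-96, Fisher's exact test). The 0-division library was at 51.7% and control at 54.4%. All 10 measured CpGs of its window, 9 of them in the sequence shown, were lower, at 1.48% to 16.8% in >3-division cells and 37.9% to 60.6% in 1-division cells. The CpGs at 122 and 89 bases before the start were the lowest in both libraries, and those from 29 bases before it to the start lay highest. At Plagl1, a zinc finger growth regulator, the promoter was at 19.4% of 1091 reads in >3-division cells (17.2% to 21.9%) and 39.9% of 967 reads in 1-division cells (36.9% to 43.0%; adjusted p = 1.04e-21, Fisher's exact test), with 42.4% in 0-division cells and 42.8% in control. All 13 of its CpGs were lower. Both promoters kept their call under all 14 alternatives. Those of gap, cluster size and X chromosome leave promoter values unchanged by construction, and removing the minimum difference cannot take a call away. The window of the noncoding Hymai, which differs from that of Plagl1, was at 21.1% in >3-division cells and 38.4% in 1-division cells.

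Of the 35 listed imprinted genes 8 had a measured promoter, and these 2 were the only ones called among them, against 67 of 7852 over all promoters. Of these 8, 4 were at or above 20% in control, where 58 of all 199 promoters were called lower. Igf2r, the receptor that clears Igf2, was at 28.0% in >3-division cells and 32.3% in 1-division cells and was not called. With equal weight per CpG the Igf2r difference was -14.6 points, and 17 of its 24 CpGs were lower. Gnas, Grb10, Igf2 and Zdbf2 were under 4% in both libraries, and Fkbp6 was at 87.9% in >3-division cells and 91.4% in 1-division cells.

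**Figure D5:**
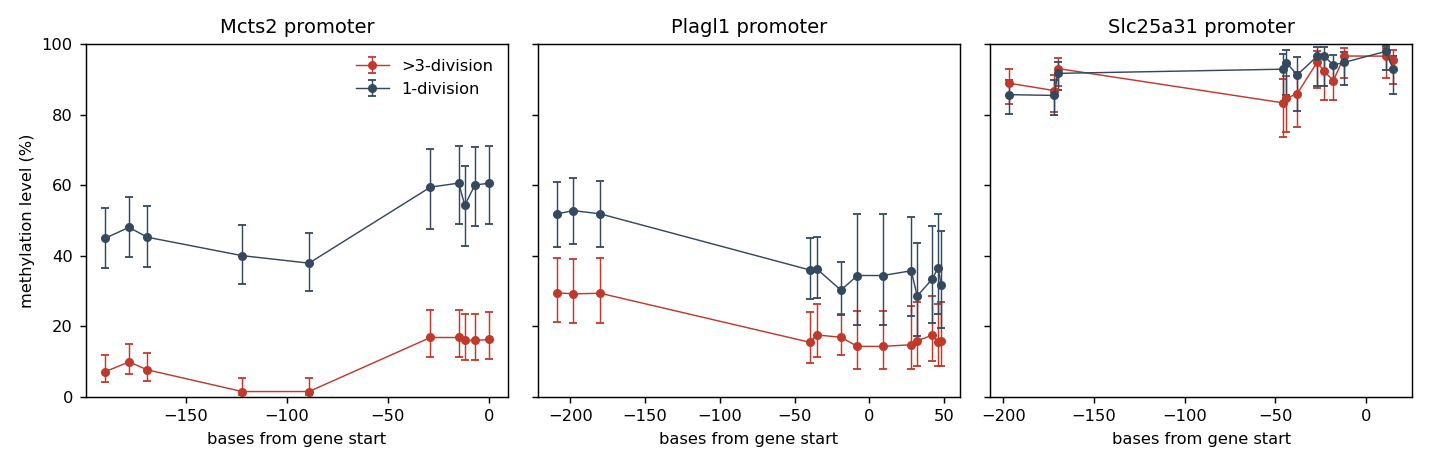
Methylation level of each measured CpG (vertical axis, %) by its distance from the gene start (bases) at the Mcts2, Plagl1 and Slc25a31 promoters, in the >3-division (red) and 1-division (blue) libraries, with 95% Wilson intervals. All CpGs of Mcts2 and Plagl1 are lower in >3-division cells, while Slc25a31 stays above 83% in both.

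Germline promoters were the most methylated of the lists and mostly stayed so. Of 45 listed genes 13 were measured, 10 at or above 20% in control, and 1 was called. That was Hormad2, a meiotic chromosome axis protein, at 28.4% in >3-division cells and 47.5% in 1-division cells. The 9 germline promoters at or above 50% in control had 0 calls and a median difference of -2.86 points, against 25 lower calls among all 87 promoters at that level and a median of -5.81 points. Of these 9 germline promoters 8 were above 80% in control, with a median difference of -3.51 points, and all 45 promoters above 80% had a similar median of -3.70 points with 7 called lower. Slc25a31, a testis mitochondrial carrier, was at 90.5% in >3-division cells and 91.5% in 1-division cells over the 12 CpGs of its window. Dazl, an RNA-binding protein of germ cells, was at 96.5% in >3-division cells and 96.2% in 1-division cells. Ddx4, the germ cell helicase, was at 67.0% in >3-division cells and 68.7% in 1-division cells. Mael and Hormad1 were at 72.7% and 84.8% in >3-division cells and 81.0% and 90.4% in 1-division cells; both differences had an adjusted p under 0.05 (0.0243 and 0.0266, Fisher's exact test) but were under 10 points.

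The remaining lists had 0 calls, and most of their measured promoters were under 5% in 1-division cells. From that level no fall of 10 points was possible. Among 7 measured pluripotency genes Sox2 and Klf4 were at 1.13% and 0.279% in >3-division cells and 2.46% and 0 in 1-division cells, and none was above 5%. The 17 measured genes of the DNA methylation machinery included Dnmt1, at 0.300% in >3-division cells and 0.329% in 1-division cells, and Uhrf1, at 0.0346% in >3-division cells and 0.280% in 1-division cells. The promoter of Tdg, the thymine DNA glycosylase that removes oxidised methylcytosine, was at 0.151% (2 of 1322 reads) in >3-division cells and 3.99% (30 of 751) in 1-division cells, a difference with an adjusted p of 2.14e-09 (Fisher's exact test) but under 10 points. The 19 cell cycle and senescence genes included the inhibitor gene Cdkn2a, at 0.489% in >3-division cells and 1.07% in 1-division cells. Among 8 fibroblast and mesenchymal genes Col1a2, a type I collagen chain, was highest, at 5.91% in >3-division cells and 10.50% in 1-division cells. The 3 epithelial genes were under 4% in both libraries.

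Over all genes, 39 protein-coding promoters were called lower, and Mcts2, Plagl1 and Hormad2 were among the 15 largest of these losses. The rest of the 15 were genes of unlike function. Parg, which removes poly(ADP-ribose), was at 11.1% of 877 reads in >3-division cells and 47.6% of 1160 reads in 1-division cells. Taf1c, a subunit of the RNA polymerase I selectivity factor, was at 37.3% in >3-division cells and 66.8% in 1-division cells. Cyp2r1, the vitamin D 25-hydroxylase, was at 18.7% in >3-division cells and 39.4% in 1-division cells. Hoxa5, a homeobox factor, was at 31.9% of 248 reads in >3-division cells and 54.0% of 457 reads in 1-division cells, and lower at all 7 CpGs. Control stood at 44.0% at Hoxa5, below the 1-division library, and the same held for Fbxo27, at 12.1% in >3-division cells, 41.5% in 1-division cells and 27.1% in control. At Oxgr1 the order differed, with 8.07% in >3-division cells, 33.0% in 1-division cells, 43.8% in 0-division cells and 50% in control. Vmn2r29, Rnf26, Cdv3 and Gm1070 were at 34.6%, 15.9%, 3.55% and 66.3% in >3-division cells and 55.9%, 37.0%, 24.8% and 89.2% in 1-division cells; Gm1070 had an adjusted p of 0.122 (Fisher's exact test) after the same scaling of reads as above for gains. Papolb, a testis poly(A) polymerase, was at 49.9% in >3-division cells and 69.5% in 1-division cells, but the difference was -6.76 points with at least 20 reads per CpG, and Ppp1r14bl, at 54.8% in >3-division cells and 73.9% in 1-division cells, kept its call under 9 of 13 alternatives.

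The 3 protein-coding promoters called higher started from low levels. Agbl2, a tubulin carboxypeptidase, was at 33.0% of 1693 reads in >3-division cells and 20.1% of 1194 reads in 1-division cells, with 18.2% in 0-division cells and 15.2% in control. With equal weight per CpG the Agbl2 difference was 9.66 points. Denn2b was at 25.5% in >3-division cells and 13.5% in 1-division cells, with an adjusted p of 0.0749 (Fisher's exact test) after scaling for overdispersion of the 0-division library. Entpd2, an ectonucleotidase, was at 28.9% of 194 reads in >3-division cells and 14.5% of 159 reads in 1-division cells, and with equal weight per CpG the difference was 4.09 points. The other 2, the noncoding 3110070M22Rik and Gm30177, were also called at just over 10 points.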

How the data were processed

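DNA methylation was measured by RRBS in 4 libraries, 1 per group. The authors deposited, for each CpG, methylated and unmethylated read counts on mm9, the build in the submitters' processing notes. Not given in the sources used here are aligner, caller, conversion rate and duplicate treatment, or whether positions count from 0 or 1, so positions are printed as deposited. Levels are methylated reads over all reads, in percent. Clusters, CpGs and promoters were tested by two-sided Fisher's exact test with Benjamini-Hochberg adjustment over all features of a kind (Python 3.11.15, numpy 2.4.6, scipy 1.17.1, numba 0.67.0). The cluster test was checked on simulated data with reads drawn independently. Such data hold neither shared fragments nor overdispersion between libraries, so the check does not cover these.

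Promoters of RefSeq GRCm38.p6 were matched to the files by CpG spacing: every listed CpG in a 300 bp window had to lie on a CpG of the sequence, with at least 8 matches and a lead of 3 over the next window. Of 15382 autosomal promoters with enough CpGs 9376 matched, against 12 when searched on another chromosome; 9369 with an offset like a neighbour's were used. No coordinates were converted. This step was added after the data were seen.

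Text names the 10 largest losses and gains, the 5 of each with most CpGs, the 5 largest CpG-dense losses, the 3 lowest and 3 highest windows, and the 15 and 10 largest protein-coding promoter losses and gains. The Gnas region, the runs and the printed sequences were chosen after their values were seen. Members and gene lists were chosen with earlier results of these data known. Alternatives were other coverage minimums, gaps, cluster sizes and minimum differences, thinning, equal weights, overdispersion, the library-wide odds ratio, and the X chromosome.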

Additional observations from a re-analysis of the deposited data

How the results depend on the processing

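The counts depended on settings in size, and relative to the library-wide odds ratio also in the balance of lower and higher calls. With the thinned reads, 300 clusters, 567 CpGs and 2 promoters were higher and 19920 CpGs lower. With reads divided by the overdispersion between the 0-division and control libraries (2.40 for clusters, 1.29 for CpGs), 3679 clusters were lower and 75 higher, 21794 CpGs lower and 402 higher, and 33 promoters lower and 2 higher. With that between the 1-division and control libraries (1.67 and 1.32), 6781 clusters were lower and 180 higher, and 21050 CpGs lower and 368 higher. Relative to the library-wide odds ratio, 4705 clusters were lower and 2341 higher, 15511 CpGs lower and 4227 higher, 28 promoters lower and 21 higher, and the mean differences were -0.52 points for clusters and -0.55 for CpGs. The construction of that setting removes the average change.

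With no minimum difference 17600 clusters were lower and 1257 higher, 1633 CpGs higher, and 360 promoters lower and 28 higher. With the minimum doubled 4059 clusters were lower and 68 higher, 14603 CpGs lower and 191 higher, and 16 promoters lower and 0 higher. With at least 5 CpGs, 3808 of 47982 clusters were lower and 165 higher, with a mean of -2.57 points. Mean differences of clusters and CpGs were -4.40 and -4.11 points at 5 reads per CpG, -2.96 and -3.06 at 20 reads, and -3.73 and -3.64 with X. Cluster means were -2.81 and -4.71 points at gaps of 50 and 200 bp. Promoters higher were 3 at 20 reads and 3 with equal weight. The cluster at chr8:94323447 reversed to -7.44 points at a gap of 200 bp.

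Of named clusters over alternatives, 380 values kept their call, 37 lost it and 1 reversed. Of named promoters 231 kept it and 18 lost it. Removing the minimum difference could not take away a call of either kind. The alternatives of gap, cluster size and X chromosome could not change a promoter value, so the promoter counts include values fixed in advance. The causes were not tested beyond the construction of a setting. No paired analysis was possible because each side is 1 library. Depth limits single CpGs most.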
